A study of Mus musculus with 12 samples.

Results

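The livers compared here came from male ICR and C57BL/6J mice kept on a normal diet (ND), so that the strains could be set against each other without the steatohepatitis diet. The 6 libraries, 3 of ICR and 3 of C57BL/6J, were chosen by their strain and diet labels from the 12 libraries of the series. The other 6 libraries came from mice of both strains fed an amino acid-based high-fat diet without choline (CDAHFD), and they served to see whether a strain difference was also present in other libraries and whether it differed between the diets. All mice were labelled wild type, were bought at 8 weeks of age and then ate their diet for 10 weeks. C57BL/6J is an inbred strain whose animals are genetically alike, whereas ICR is an outbred stock in which each animal carries its own mixture of alleles. The mouse reference genome is that of C57BL/6J, so reads of an ICR mouse were aligned to the genome of the other strain. Nothing in the labels says whether a library held 1 or several animals, and the p-values below measure only the spread between these libraries.

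The liver makes most of the proteins of the plasma, breaks down drugs and steroids, and handles lipid and bile acid. Many of its secreted and detoxifying proteins are encoded by clusters of closely related genes that arose by duplication, such as the major urinary proteins (Mup), the alpha-1-antitrypsin and antichymotrypsin homologs (Serpina1 and Serpina3) and the cytochromes P450. In mice these clusters differ between strains in copy number and in sequence, and several of them are also regulated by sex through growth hormone.

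The ND libraries held 22245245 to 24205176 counted reads. The first principal component of log2 CPM (the count scaled to the effective library size) separated the strains and held 57.9% of the variance. The median SD of log2 CPM over the 12472 genes tested was 0.20 in C57BL/6J and 0.28 in ICR, and the SD was larger in ICR for 64.2% of the genes. The ratio of the ICR median SD to the C57BL/6J one was 1.39, and it dropped to 1.06 without ICR replicate 2 and to 0.916 without ICR replicate 1. The Euclidean distance between ICR replicates 1 and 2 over all genes (94.6) exceeded the smallest distance between the strains (88.9). None of the 8 liver identity genes differed by the test, and albumin (Alb) stood at 62770 to 75201 CPM in C57BL/6J, against 50839 to 77581 CPM in ICR. The 4 Y-linked genes measured were detected in every library and none was called.

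A gene was called when its Benjamini-Hochberg adjusted p in edgeR's quasi-likelihood test was below 0.05. Of 12472 genes tested, 766 were upregulated in ICR (6.14%) and 709 were downregulated (5.68%), together 11.8%. The strain difference was at least 2-fold for 396 of the higher genes (3.18% of those tested) and 399 of the lower genes (3.2%), and at least 32-fold for 21 and 16. With an unadjusted p below 0.05 and a change of at least 2-fold as the rule, 671 genes were higher (5.38%) and 651 were lower (5.22%). The median difference over all genes was -0.01 on the log2 scale, and 90% of genes lay between -1.08 and 1.16. The groups did not overlap in 4708 genes (37.7%), and ICR lay wholly below C57BL/6J in 19.7%. With 3 libraries a strain the number of calls moved with each library. It was 78 higher and 108 lower without C57BL/6J replicate 1, 79 and 108 without C57BL/6J replicate 3, 119 and 117 without ICR replicate 3, 387 and 353 without C57BL/6J replicate 2, 546 and 456 without ICR replicate 2, and 1737 and 1655 without ICR replicate 1. Counts of list members given below for a fit without 1 library are to be read against these totals. A set of 160 genes, 70 higher and 90 lower, was called whichever library was left out, and such genes are described below as held in every leave-one-out fit.

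The genes furthest above C57BL/6J in ICR were led by an immune receptor, a complement protease and members of duplicated families. C1rb, a rodent paralog of the complement protease C1r, had 1.01, 1.65 and 1.53 CPM in C57BL/6J, against 83.4, 85.3 and 81.5 CPM in ICR, a log2 difference of 5.90 ± 0.20 (SE, adjusted p = 9.84e-06). The ICR libraries were nearly equal and lay far above all C57BL/6J libraries. Ccr3, the eotaxin receptor of eosinophils, had at most 0.0849 CPM in C57BL/6J, against 5.6, 13.6 and 11.1 CPM in ICR (log2 7.31 ± 0.62, adjusted p = 0.000764). Ifi202b, an interferon-inducible DNA-binding protein known for its strain-dependent expression, was counted 3 times over the C57BL/6J libraries and 505 times over the ICR libraries, a ratio of 164 with a 95% counting interval of 55.7 to 797. Nuggc, a nuclear GTPase of germinal centre B cells, rose from 0.0421 to 0.377 CPM in C57BL/6J to 10.4 to 22.2 CPM in ICR (log2 6.09 ± 0.58). Cyp2c39, a cytochrome P450, had 1.94, 2.36 and 2.33 CPM in C57BL/6J, against 85.1, 34.5 and 138 CPM in ICR (log2 5.28 ± 0.51). Corin, the protease that activates the natriuretic peptide precursor, and Havcr1, a phosphatidylserine receptor, were higher by 5.23 ± 0.60 and 4.96 ± 0.55 on the log2 scale. All 7 of these genes were held in every leave-one-out fit. Trim43b, Ankrd55 and Tgtp2 were among the largest too, but were not held. Tgtp2, an interferon-inducible GTPase, had 3.84, 195 and 18.8 CPM in ICR, and replicate 2 stood far above the other ICR libraries.

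The genes furthest below C57BL/6J in ICR included a hormone-activating enzyme and a lipid carrier. Dio1, the deiodinase that activates thyroid hormone, had 80, 180 and 99.7 CPM in C57BL/6J, against 1.40, 3.57 and 3.77 CPM in ICR (log2 -5.37 ± 0.46, adjusted p = 0.000813). The highest ICR library thus lay far below the lowest C57BL/6J library. Pctp, which carries phosphatidylcholine between membranes, had 120, 101 and 136 CPM in C57BL/6J, against 5.24, 2.78 and 5.13 CPM in ICR (log2 -4.76 ± 0.27, adjusted p = 9.65e-05). Acpp, prostatic acid phosphatase, had 10.9, 28.8 and 10.4 CPM against 0.0801, 0.0883 and 0.175 CPM (log2 -7.13 ± 0.62). Cebpe, a transcription factor of granulocytes, had 6.74, 4.57 and 8.66 CPM in C57BL/6J, against at most 0.132 CPM in ICR. Trim12a, a homolog of the retroviral restriction factor TRIM5, had 15.8, 11.8 and 14.2 CPM against at most 0.200 CPM. Olfr1033, an olfactory receptor gene, had 19.8, 22.3 and 15.1 CPM against 0.360, 0.177 and 0.175 CPM. Pydc4, a pyrin domain protein, was lower, with a log2 difference of -4.65 ± 0.49. All of these were held in every leave-one-out fit. Trim12a has 2 near-identical coding copies, and Olfr1033 and Pydc4 have 1 each. The part of read assignment between copies in their low ICR values was not tested.

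**Figure D1:**
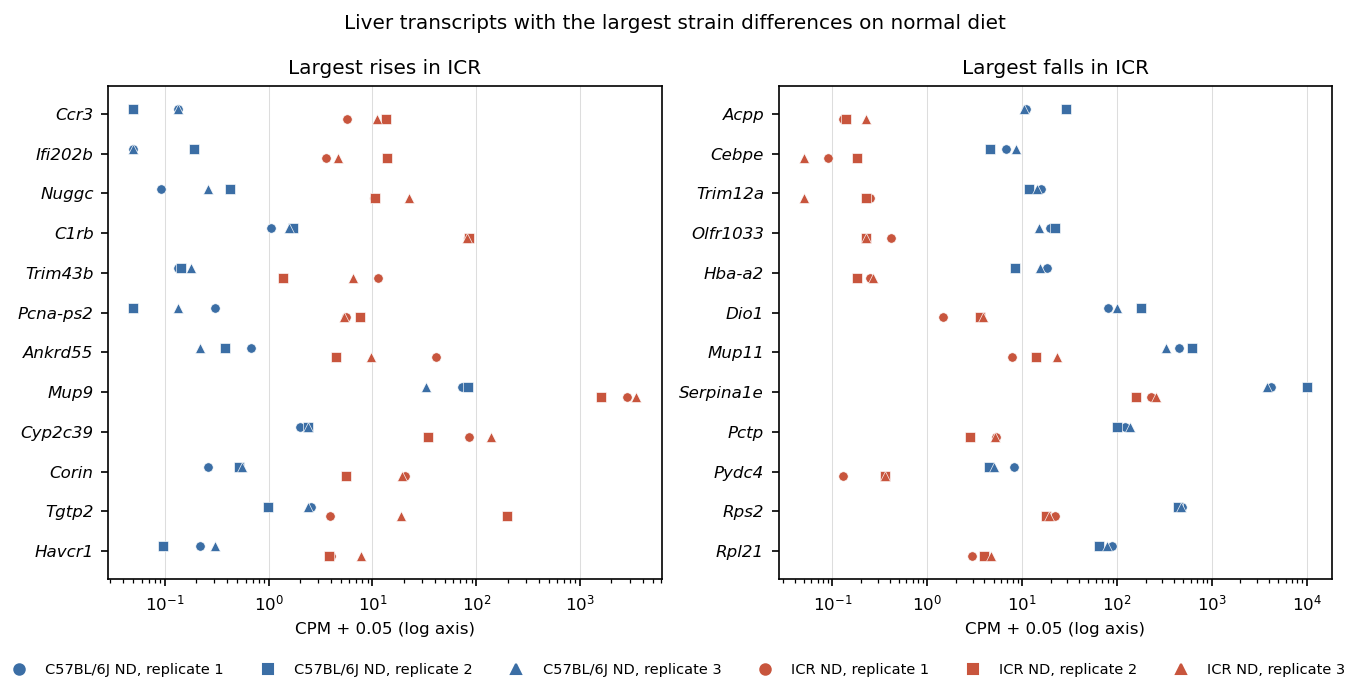
CPM plus 0.05 on a log axis for the 12 genes with the largest rises (left) and the 12 with the largest falls (right) in ICR, 1 point per library. The blue C57BL/6J and red ICR points do not overlap for any gene shown, which the choice of genes required, and Tgtp2 and Ankrd55 show the widest spread among ICR libraries.

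The Mup genes, which encode lipocalins that the male liver secretes for scent signalling in urine, moved in both directions. Of 20 Mup genes tested, 5 were higher (25% against 6.14% of all genes) and 5 were lower (25% against 5.68%). Mup9 had 73.1, 83.4 and 32.4 CPM in C57BL/6J, against 2818, 1573 and 3480.4 CPM in ICR (log2 5.38 ± 0.49, adjusted p = 0.00108). Mup10 had 38.2, 104 and 54.5 CPM against 732, 858 and 991 CPM (log2 3.72 ± 0.38). Both genes were thus minor in C57BL/6J and abundant in every ICR library. Mup2, Mup13 and Mup21 were higher by 2.40, 1.90 and 1.08 on the log2 scale. Mup11 had 447, 613 and 332 CPM in C57BL/6J, against 7.69, 14.1 and 23.0 CPM in ICR (log2 -4.96 ± 0.45, adjusted p = 0.00107). Mup14 had 1763, 2281 and 1568 CPM against 77.9, 344 and 137 CPM (log2 -3.33 ± 0.53). Mup19, Mup7 and Mup1 were lower, with log2 differences of -2.07, -1.27 and -1.19. The most counted member, Mup3, did not pass the test, with 12098 to 14565 CPM in C57BL/6J, against 9042 to 11965 CPM in ICR. Summed over the family, the Mup genes took 28996, 35719 and 26261 CPM in C57BL/6J, against 25346, 23029 and 28010 CPM in ICR, so that the strains overlapped. Of the 10 calls, Mup9, Mup10, Mup2, Mup11 and Mup19 were held in every leave-one-out fit. Mup2, Mup10, Mup11, Mup14 and Mup19 each have 15 other coding genes at 95% identity or more over at least 80% of the coding sequence, and Mup9 has 4, so reads of this family could be split between members and the values of single members are uncertain.

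The promoters of the Mup genes that differed most are shown because members of opposite direction share the same TATA-like stretch. Each line gives 80 bases of RefSeq sequence (build GRCm38.p6, minus strand of chromosome 4), read 5′ to 3′ and ending with the TATA-like motif TATATAAGG in capitals. Every stretch was cut to end at this motif, so its presence in all of them follows from that choice. Mup9, Mup10 and Mup2 were higher in ICR, and Mup11, Mup14 and Mup19 were lower. The stretches lie at chr4:60421975-60422054, chr4:60582177-60582256, chr4:60139875-60139954, chr4:60662389-60662468, chr4:61303978-61304057 and chr4:61782247-61782326, in the order printed.
Mup9: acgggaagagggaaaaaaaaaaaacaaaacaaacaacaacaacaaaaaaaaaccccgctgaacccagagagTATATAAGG
Mup10: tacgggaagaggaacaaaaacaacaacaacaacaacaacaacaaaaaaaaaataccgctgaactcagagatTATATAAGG
Mup2: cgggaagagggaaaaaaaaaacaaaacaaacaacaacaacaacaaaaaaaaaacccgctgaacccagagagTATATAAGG
Mup11: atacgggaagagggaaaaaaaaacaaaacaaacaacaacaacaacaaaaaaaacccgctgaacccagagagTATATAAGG
Mup14: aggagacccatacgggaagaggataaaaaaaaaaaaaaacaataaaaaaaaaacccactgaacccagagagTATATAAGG
Mup19: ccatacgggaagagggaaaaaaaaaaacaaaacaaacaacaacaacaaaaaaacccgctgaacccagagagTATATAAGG

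The motif was found on either strand in 11 of the 14 Mup promoters with a RefSeq entry and in 0.307% of 32851 mouse promoters of the same 300-base window. It was chosen beforehand as a motif of the Mup genes, so its higher share among them is no test. It ended 18 to 22 bases before the annotated start of Mup2, Mup9, Mup10 and Mup19, and 7 and 21 bases past the annotated start of Mup11 and Mup14. Compared base by base from the motif without gaps, pairs that were both higher shared 54 to 67 of the 80 bases, pairs that were both lower shared 54 to 58, and pairs of opposite direction shared 49 to 62. These are the sequences of C57BL/6J, and the ICR alleles were not read.

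The Serpina1 and Serpina3 genes on chromosome 12 encode the protease inhibitors alpha-1-antitrypsin and its relatives, and members of both groups differed. Of 13 genes tested, 3 were higher and 2 were lower (38.5% called against 11.8% of all genes), and all 5 were held in every leave-one-out fit. Serpina1e had 4192, 10043 and 3795 CPM in C57BL/6J, against 231, 159 and 258 CPM in ICR (log2 -4.80 ± 0.48, adjusted p = 0.00168). Serpina1d had 2022, 2323 and 2169 CPM against 437, 542 and 755 CPM (log2 -1.91 ± 0.25). Serpina1b did not pass the test, with 4417 to 4655 CPM in C57BL/6J, against 4895 to 6207 CPM in ICR (log2 0.25 ± 0.23, adjusted p = 0.50). Serpina3c had 1.05, 1.51 and 0.934 CPM against 27.8, 44.6 and 35.8 CPM (log2 4.95 ± 0.27, adjusted p = 8.19e-05). Serpina3m had 95, 203 and 132 CPM against 902, 1996 and 1510 CPM (log2 3.36 ± 0.39). Serpina3a was near the floor of detection in C57BL/6J, with 3 counts against 74 in ICR, a ratio of 24.0 with a counting interval of 7.90 to 119. Serpina1d and Serpina1e each have 4 near-identical coding copies, whereas Serpina3c and Serpina3m have none.

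**Figure D2:**
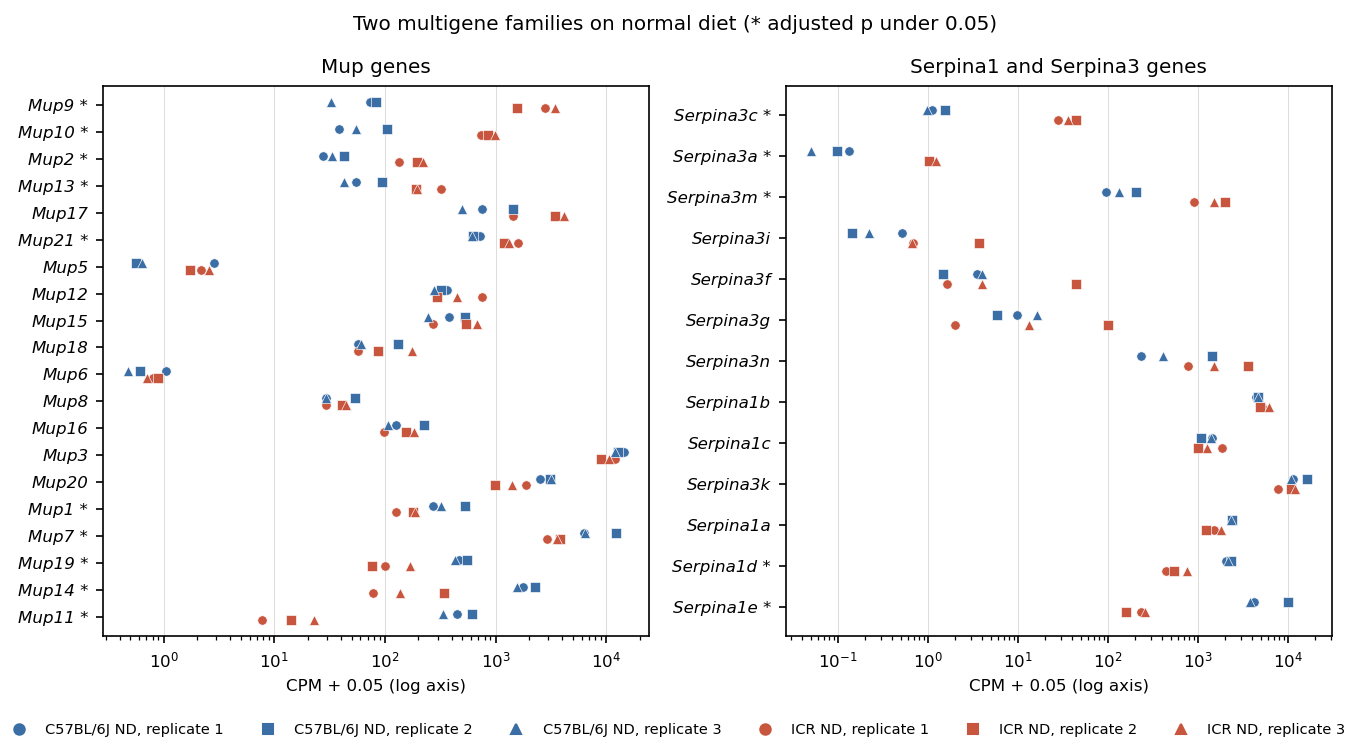
CPM plus 0.05 on a log axis for every tested Mup gene (left) and Serpina1 or Serpina3 gene (right), 1 point per library, with genes ordered by their log2 difference. Mup9 and Mup10 stand far to the right in ICR and Mup11 and Mup14 far to the left, while Mup3 and Serpina3k lie close together in both strains.

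Among 54 complement and coagulation genes, 4 were higher and 1 was lower, a share of 9.26% called against 11.8% of all genes. C1rb stood out, and its paralog C1ra did not pass the test, with 322 to 412 CPM in C57BL/6J, against 396 to 503 CPM in ICR. C1rb lies on chromosome 6 (GRCm38, 124570294 to 124581171, plus strand) and has 1 near-identical coding copy. Cfhr2, a complement factor H-related gene, was lower, with 120, 208 and 145 CPM against 34.0, 49.2 and 44.5 CPM (log2 -1.89 ± 0.24, adjusted p = 0.00442). Masp1, a protease of the lectin pathway, and F13b, the carrier subunit of factor XIII, were higher by 1.69 and 0.83. C1rb and Cfhr2 were held in every leave-one-out fit, and Masp1 and F13b were not.

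Drug and steroid metabolizing enzymes changed gene by gene. Of 35 Cyp2 genes, 4 were higher and 6 lower (28.6% called against 11.8% of all genes). The falls numbered 0 without C57BL/6J replicate 1, 2 without C57BL/6J replicate 3, 3 without ICR replicate 3 and 11 without ICR replicate 1. Besides Cyp2c39, the rises were Cyp2c29 (log2 1.35), Cyp2c67 (1.18) and Cyp2u1 (1.10). The falls included Cyp2a5, the coumarin hydroxylase, with 435, 188 and 750 CPM in C57BL/6J, against 7.69, 75.7 and 4.82 CPM in ICR (log2 -3.96 ± 1.07, adjusted p = 0.0491). Its libraries varied widely within both strains, and ICR replicate 2 stood apart from the other 2. Cyp2c37 had 711, 323 and 569 CPM against 121, 36.8 and 70.0 CPM (log2 -2.81 ± 0.46). Of 5 Cyp3a genes, the family that oxidizes many drugs and steroids, Cyp3a59, Cyp3a25 and Cyp3a13 were lower by log2 differences of -2.15, -1.95 and -1.43, and Cyp3a44 was higher. The share called was 80%, against 11.8% of all genes. Cyp3a falls numbered 0 without C57BL/6J replicate 3 or ICR replicate 3, and 1 without C57BL/6J replicate 1. Cyp3a44, a gene known as female-biased in mouse liver, had 0.253, 0.283 and 0.212 CPM in C57BL/6J, against 5.72, 3.84 and 5.88 CPM in ICR (log2 4.34 ± 0.35, adjusted p = 0.000568). Of 16 UDP-glucuronosyltransferases (Ugt), which conjugate drugs and bilirubin, 4 were higher and 1 was lower (31.2% called), with 2 higher without C57BL/6J replicate 1 and 1 without C57BL/6J replicate 3. Ugt1a9 had 9.44, 17.6 and 6.66 CPM against 213, 136 and 201 CPM (log2 4.03 ± 0.38, adjusted p = 0.00129). Ugt1a1, the bilirubin-conjugating form of the same locus, was lower (log2 -0.77 ± 0.17). Ugt1a genes share their last exons, so their reads could be split between them. The same holds for genes with near-identical coding copies. Cyp2c67 has 3, Cyp2c37 and Cyp3a44 have 2 each, and Cyp2a5, Cyp3a25 and Cyp3a59 have 1 each. Cyp2c39, Cyp2c29, Cyp2u1 and Cyp3a13 have none. Cyp2c39, Cyp3a44 and Ugt1a9 were the calls held in every leave-one-out fit in these 3 families.

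Sex-biased genes moved in both directions. Of 16 genes known as male-biased in mouse liver, Slco1a1, an organic anion transporter, Cspg5 and Cyp2u1 were higher and Serpina1e was lower (25% called against 11.8% of all genes). Slco1a1 had 526, 462 and 499 CPM in C57BL/6J, against 1271, 998 and 1615 CPM in ICR (log2 1.38 ± 0.23, adjusted p = 0.0128). Of 10 female-biased genes, Cyp3a44 was higher, and Cyp2a22 and Cyp2c69 were lower with log2 differences of -2.75 and -2.72 (30% called). Cyp2a22 has 1 near-identical coding copy and Cyp2c69 has 3. Of the other members of both lists, Hsd3b5 had 219 to 266 CPM in C57BL/6J, against 104 to 540.3 CPM in ICR, without passing the test, and Cyp2b9 stayed below 1 CPM in every library. In the growth hormone and IGF list of 15 genes, Igfbp1 was higher (log2 1.76 ± 0.29), and Bcl6, a repressor of growth hormone-dependent genes, was lower with 65.7, 86.7 and 135 CPM against 21.3, 32.6 and 23.9 CPM (log2 -1.89 ± 0.28). That list had 13.3% called, near the 11.8% of all genes. Cspg5, Serpina1e and Cyp3a44 were held in every leave-one-out fit, and the other genes called here were not.

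The lipid lists held calls at shares of 9.09% to 21.1%, against 11.8% of all genes, with a few large differences among them. Cd36, the fatty acid translocase, had 71.5, 29.6 and 65.6 CPM in C57BL/6J, against 10.1, 11.9 and 9.78 CPM in ICR (log2 -2.39 ± 0.32, adjusted p = 0.00576). G0s2, an inhibitor of adipose triglyceride lipase, had 193, 123 and 152 CPM against 18.2, 29.6 and 73.4 CPM, and with Mgll, monoacylglycerol lipase (log2 -0.75), these were the 3 falls among 21 lipid droplet and uptake genes (14.3% called against 11.8% of all genes). Of 19 lipogenic genes, Lpin1 (log2 2.01), Acacb (1.26) and Gpam (1.12) were higher (15.8% called). None of these was called without C57BL/6J replicate 1 or 3 or ICR replicate 3, and without ICR replicate 1 the list had 5 higher and 5 lower genes. Fasn and Scd1, which make and desaturate fatty acids, overlapped between the strains. Scd1 had 9488 to 10980.0 CPM in C57BL/6J, whereas ICR replicate 1 had 11172 CPM and replicates 2 and 3 had 2253 and 3970 CPM. Of 19 bile acid genes, 4 were higher (21.1% against 6.14% of all genes) and none was lower, which became 1 higher without C57BL/6J replicate 1 or 3 or ICR replicate 3, and 5 higher and 2 lower without ICR replicate 1. Cyp46a1, cholesterol 24-hydroxylase, had 3.96, 1.74 and 4.80 CPM in C57BL/6J, against 104, 76.9 and 83.3 CPM in ICR (log2 4.64 ± 0.34, adjusted p = 0.000404). Fgfr4 and its co-receptor Klb, which receive the intestinal signal that limits bile acid synthesis, were higher by 0.79 and 1.21, and so was Nr5a2 (0.92). Cyp7a1, the rate-limiting enzyme of bile acid synthesis, did not pass the test, with 102, 204 and 73.9 CPM against 336, 137 and 409 CPM. In the cholesterol synthesis list, 18 of 22 genes had a positive difference (median 0.48), but 2 passed the test (9.09% called), among them Stard4 (log2 1.18), and none did without C57BL/6J replicate 1 or 3 or ICR replicate 3. Among 29 PPARA targets and oxidation genes, Vnn1, Acaa1b and Slc25a20 were lower (log2 -2.40, -1.37 and -0.57) and Acadvl was higher (0.95), a share of 13.8% called, and the list had no call without C57BL/6J replicate 1 or 3 or ICR replicate 3. Of 10 choline and phosphatidylcholine genes, the choline transporter Slc44a1 was higher, with 8.34, 9.05 and 7.64 CPM against 21.4, 18.8 and 21.3 CPM (log2 1.30 ± 0.15), and Chpt1 was lower (log2 -1.05), a share of 20% called. Of these genes Cd36, Cyp46a1 and Slc44a1 were held in every leave-one-out fit.

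Antigen presentation genes of class I were lower in part. Of 20 genes tested, 5 were lower and 1 was higher (30% called against 11.8% of all genes). The falls numbered 1 without C57BL/6J replicate 1 or 3, and 2 without ICR replicate 3. H2-K1, a classical class I heavy chain, had 1680.0, 1685 and 1593 CPM in C57BL/6J, against 399, 458 and 704 CPM in ICR (log2 -1.67 ± 0.25, adjusted p = 0.00983). H2-D1, the other classical chain of this haplotype, did not pass the test, with 451 to 516 CPM against 275 to 540.4 CPM. H2-Q7 had 58.3, 81.7 and 62.8 CPM against 8.29, 10.6 and 13.7 CPM (log2 -2.64 ± 0.22, adjusted p = 0.000761). H2-Q6, H2-Q4 and H2-Q10 were lower with log2 differences of -1.91, -1.12 and -1.05, and H2-T24 was higher (1.41). Class I genes are highly polymorphic between mouse strains, and the part of the alignment to the C57BL/6J genome in these values was not tested. H2-Q7 alone was held in every leave-one-out fit.

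Some markers of B and plasma cells were lower in ICR. All 7 markers tested had a negative difference (median -1.25), and 3 passed the test, among them Pax5 and Igj (42.9% against 5.68% of all genes). Pax5, a transcription factor of the B cell lineage, had 1.81, 0.565 and 1.36 CPM in C57BL/6J, against 0.320, 0.265 and 0.263 CPM in ICR (log2 -2.12 ± 0.52, adjusted p = 0.040). Igj, the joining chain of secreted antibodies, had 7.12, 11.6 and 8.24 CPM against 2.68, 2.43 and 2.11 CPM (log2 -1.90 ± 0.26). Summed over the list the markers stood at 16.5 to 21.7 CPM in C57BL/6J, against 5.56 to 6.92 CPM in ICR, without overlap. Of 5 T cell markers tested, Lat was lower (log2 -3.45), and Cd8a, Cd3e, Cd3g and Cd4, with differences of -2.10, -0.69, -0.58 and 0.88, did not pass the test. None of 6 natural killer cell markers was called (median 0.50, 4 positive). Of 26 chemokines and chemokine receptors, Ccr3 was higher, and Ccr7, Cxcr3, Ccl5 and Cxcl13 were lower with log2 differences of -2.90, -2.15, -1.90 and -1.39 (19.2% called against 11.8% of all genes). The number of falls in this list was 0 when any C57BL/6J library or ICR replicate 3 was left out, 2 without ICR replicate 2 and 7 without ICR replicate 1. In whole liver, fewer cells of a type and less RNA per cell cannot be told apart. Of the 3 marker calls 1 was left without C57BL/6J replicate 3 or ICR replicate 3 and 2 without C57BL/6J replicate 1 or ICR replicate 2, and Igj was held in every leave-one-out fit.

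Acute phase, interferon and class II genes varied widely among the ICR libraries. Of 28 acute phase genes, 25 had a positive difference (median 0.96), yet only Hamp2, a hepcidin gene, was called, and it was lower, with 13.3, 2.64 and 7.81 CPM in C57BL/6J, against 0.881, 0.309 and 0.439 CPM in ICR. Saa1, a main acute phase protein, had 67.2, 6675 and 274 CPM in C57BL/6J, against 336, 10977 and 5603 CPM in ICR, so that replicate 2 of C57BL/6J lay above 2 of the 3 ICR libraries. The median of the list was 0.13 without ICR replicate 2 and 1.81 without C57BL/6J replicate 2. Of 18 interferon-inducible GTPases, Tgtp2 was higher and F830016B08Rik was lower, and their summed level was 1302 to 1505 CPM in C57BL/6J, against 1534, 4595 and 1755 CPM in ICR. The 11 MHC class II genes measured summed to 120 to 173 CPM in C57BL/6J, against 53.9, 391 and 195 CPM in ICR, and none of the 8 tested was called. The 10 Kupffer cell markers, of the resident liver macrophages, likewise summed to 356 to 459 CPM and to 294, 827 and 541 CPM. Replicate 2 was thus the highest and replicate 1 the lowest ICR library for the class II genes and the macrophage markers. Without ICR replicate 1, 10 interferon GTPases, 4 class II genes and 6 Kupffer markers were called higher. In that fit 1737 of all 12743 genes tested were called higher. Neutrophil markers, 5 of 10 of which were tested, summed to 4.21, 39.0 and 10.3 CPM in C57BL/6J, against 2.88, 23.5 and 12.3 CPM in ICR. Without ICR replicate 2 the medians of the interferon GTPase, class II and Kupffer lists were 0.11, -0.13 and 0.10, against 0.98, 0.61 and 0.58 with it.

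**Figure D3:**
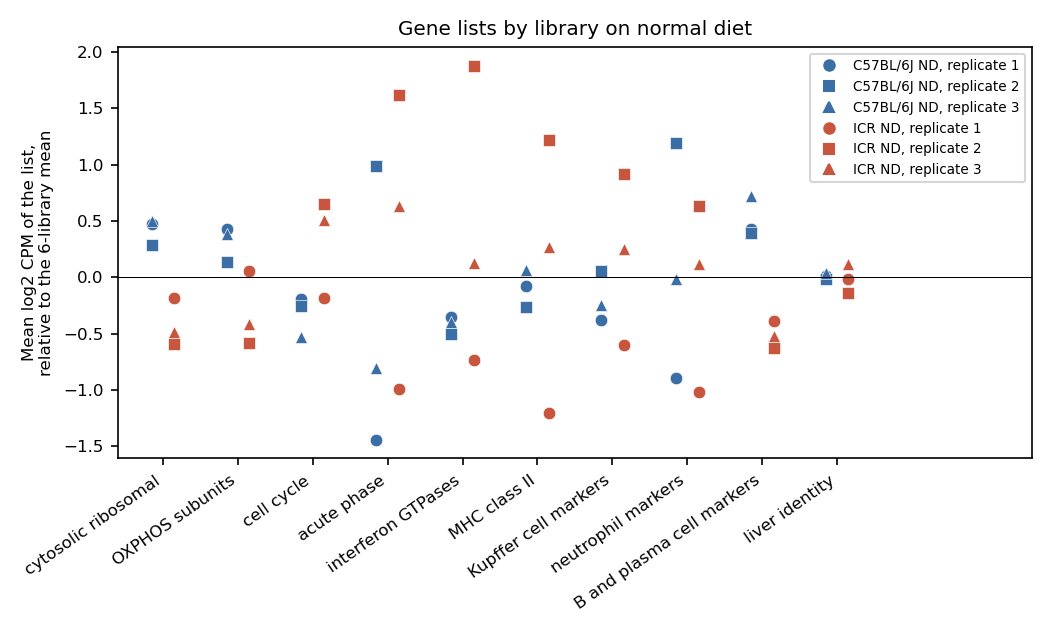
Mean log2 CPM of the members of 10 gene lists in each library, relative to the mean of the 6 ND libraries. The strains separate for ribosomal protein genes and B cell markers, while ICR replicate 2 (red square) stands highest for acute phase, interferon GTPase, MHC class II and Kupffer cell genes.

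Cell cycle genes were expressed at low levels, and most had a positive difference. Of 38 genes tested, 32 had a positive difference (median 0.90), 6 were higher and 1 was lower (18.4% called against 11.8% of all genes). Ccnb1, a mitotic cyclin, had 1.90, 1.6 and 0.467 CPM in C57BL/6J, against 3.92, 7.72 and 7.89 CPM in ICR (log2 2.30 ± 0.50, adjusted p = 0.0299). Tpx2, Kif20a, Bub1, Plk1 and Ccnb2 were higher by 1.28 to 2.07 on the log2 scale. Mki67, the proliferation marker, missed the threshold with 5.56 to 8.86 CPM against 7.57, 32.8 and 24.5 CPM (adjusted p = 0.0653). The number of higher genes was 0 when any C57BL/6J library or ICR replicate 3 was left out, 2 without ICR replicate 2 and 20 without ICR replicate 1.

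Ribosomal protein genes formed the group with the highest share of falls among the lists with at least 10 members tested. Of 76 cytosolic ribosomal protein genes, 38 were lower and none was higher (50% against 5.68% of all genes), with a median of -0.63, and the ICR libraries lay wholly below C57BL/6J in 61 of them (19.7% of all genes). Rps2 had 482, 437 and 471 CPM in C57BL/6J, against 22, 17.9 and 19.3 CPM in ICR (log2 -4.55 ± 0.17, adjusted p = 1.63e-05). Rpl21 had 89.0, 64.4 and 79.2 CPM against 2.88, 3.88 and 4.69 CPM (log2 -4.34 ± 0.23). Rpl29, Rps18, Rpl34 and Rpl35a were lower with log2 differences of -3.69, -3.22, -3.20 and -2.55. Together with Rpl26 these 7 were the ribosomal protein genes held in every leave-one-out fit. The count of falls was 7 without C57BL/6J replicate 1 or 3 or ICR replicate 3, 15 and 16 without C57BL/6J or ICR replicate 2, and 58 without ICR replicate 1, while the median stayed between -0.79 and -0.51. OXPHOS subunit genes, which build the mitochondrial respiratory chain, followed with 22 of 77 lower (28.6% against 5.68% of all genes), none higher and a median of -0.67. Their largest falls were near 2-fold, as in Atp5e with 120, 81.3 and 119 CPM against 55.0, 36.0 and 44.0 CPM (log2 -1.25 ± 0.21). The OXPHOS count was 0 without C57BL/6J replicate 1 or 3 or ICR replicate 3, 8 and 4 without C57BL/6J or ICR replicate 2, and 60 without ICR replicate 1, with medians of -0.89 to -0.52. Scaling by library size alone left 25 ribosomal and 8 OXPHOS falls. Mitochondrially encoded genes, of which 3 were measured, took 1.95%, 1.06% and 1.21% of the counted reads in the C57BL/6J libraries and 0.977%, 0.515% and 0.671% in the ICR libraries, without overlap. None of the 3 was called, and the part of this share in the OXPHOS result was not tested.

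Several of the largest falls among ribosomal and other housekeeping genes were in genes with near-identical copies in the genome. Such copies were counted as pseudogenes in GENCODE vM21 that matched at least 80% of the coding sequence at 95% identity or more. Rps2 has 18 of them, Rpl21 has 56, Rpl29 has 26, Rpl35a has 14 and Gapdh has 67. Gapdh, the glycolytic enzyme often used as a reference gene, had 69.4, 91.2 and 67.5 CPM in C57BL/6J, against 24.9, 17.8 and 20.4 CPM in ICR (log2 -1.85 ± 0.18, adjusted p = 0.00157). Eno1 and Ahcy, with 2 and 1 pseudogene copies, were lower with log2 differences of -1.59 and -1.58. Pcna, the replication clamp, was lower (log2 -0.79), and the locus named Pcna-ps2 was higher, with at most 0.253 CPM in C57BL/6J, against 5.26 to 7.5 CPM in ICR. Likewise Hba-a2, an alpha globin gene with 1 near-identical copy, had 18.4, 8.29 and 15.5 CPM against 0.200, 0.132 and 0.219 CPM (log2 -6.21 ± 0.43), while that copy, Hba-a1, had 107, 65.2 and 71.1 CPM against 181, 115 and 62.4 CPM. Over all genes with a coding sequence searched, 17.2% of the 645 with at least 1 pseudogene copy were lower and 3.88% were higher. Of the 578 among them that were not ribosomal protein genes, 12.98% were lower and 4.325% were higher. With at least 5 copies, 32.9% of 76 genes were lower and 2.63% were higher. Ribosomal protein genes were not set apart in that smaller set. For 340 genes with at least 1 near-identical coding copy, 17.35% were lower and 10% were higher. Cyp3a44 has 2 such coding copies and Hspa1a has 1. Among 11390 genes with no near-identical copy of either kind, 4.76% were lower and 6.06% were higher. Of the ribosomal protein genes, 36 of 67 with a pseudogene copy and 2 of 9 without were lower, with medians of -0.64 and -0.35. Whether reads of ICR alleles were assigned to the copies was not tested. Single values of these genes are therefore uncertain.

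Some genes were not counted at all in the libraries of 1 strain, and others were nearly so. Gabra3, a GABA receptor subunit, was counted 134 times in C57BL/6J and 0 times in ICR, so that it was at least 45.9-fold lower in ICR when 3 counts over the group are taken as the floor. Rab6b, a small GTPase of Golgi transport, had 97 counts against 0 (at least 33.2-fold lower), and Tmeff2, Slc28a1 and Slit1 had 55, 54 and 44 counts against 0. In the other direction, the predicted genes Gm7292, Gm11710 and Gm5627 had 0 counts in C57BL/6J and 294, 114 and 77 in ICR, at least 95.3-fold, 37.0-fold and 25-fold higher. Zfp125, a zinc finger gene, had 315 counts against 3 (ratio 108, counting interval 36.6 to 526), and Hist2h2bb, a histone H2B gene, had 2 counts in C57BL/6J and 105 in ICR. These intervals and floors cover counting error only. Svs2, Svs4 and Svs5 had 38, 42 and 35 counts in C57BL/6J, all in replicate 1, against 0 in ICR, and were not tested. Glo1, glyoxalase 1, which is duplicated in some mouse strains, had 355, 345 and 381 CPM in C57BL/6J, against 1216, 752 and 655 CPM in ICR (log2 1.28 ± 0.26, adjusted p = 0.0241). Nnt, a gene with an exon deletion in C57BL/6J, did not pass the test, with 2.15, 2.45 and 2.97 CPM against 1.40, 1.81 and 2.28 CPM.

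**Figure D4:**
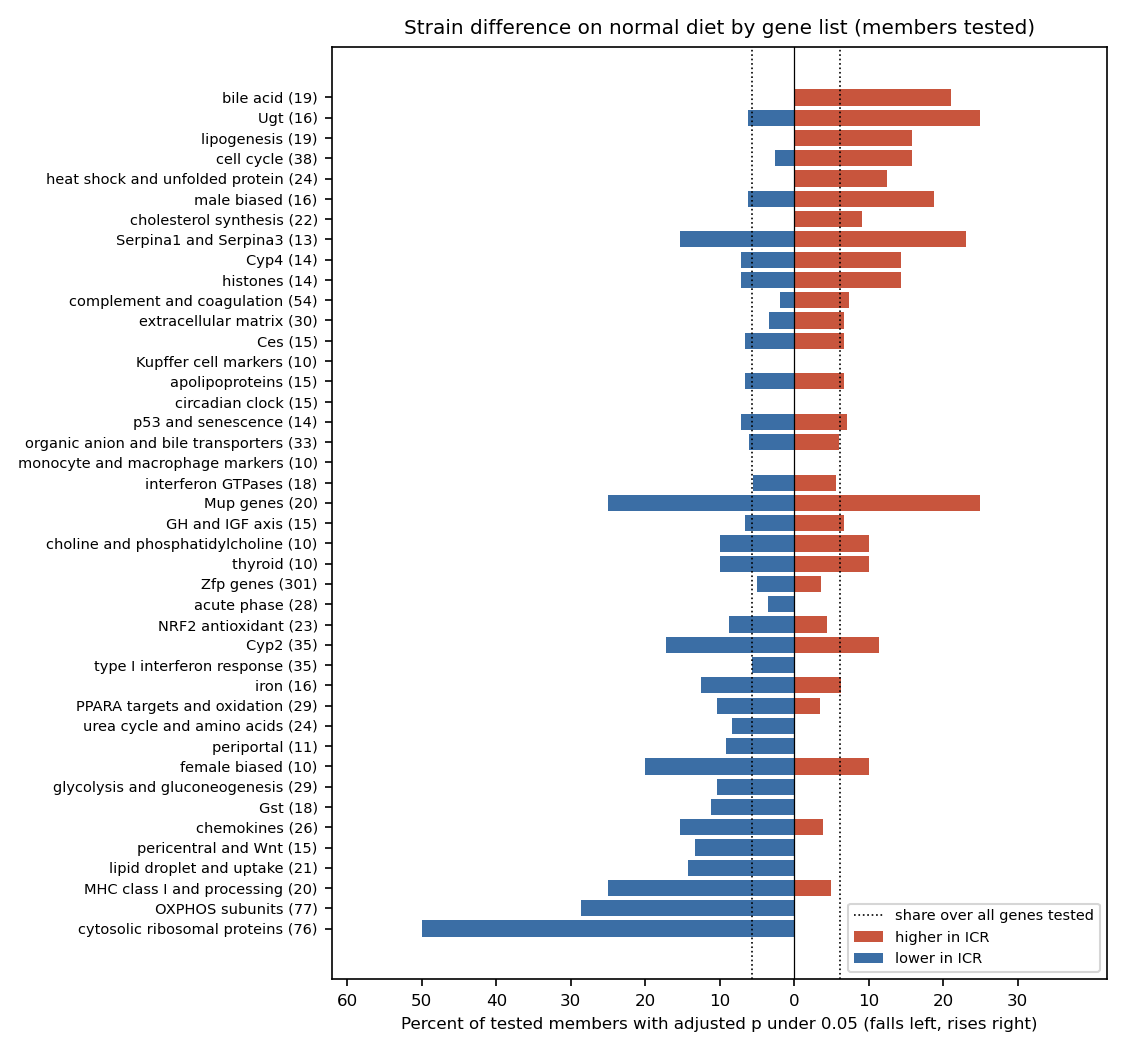
Percent of the tested members of each gene list that were called lower (left, blue) or higher (right, red) in ICR, for lists with at least 10 members tested; dotted lines mark the shares over all genes, 5.68% lower and 6.14% higher. Ribosomal protein genes reach 50% on the left, and Mup genes reach 25% on both sides.

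Other lists held few calls. Of 35 type I interferon response genes, Ifit3 and Oas2 were lower (5.71% called), and 10 were lower without ICR replicate 2. In that fit 456 of all 12729 genes tested were lower. Of 15 circadian clock genes none was called, although the clock output gene Dbp had 102 CPM in C57BL/6J replicate 3 and 12.6 to 33.8 CPM in the other 5 libraries. Of 301 zinc finger (Zfp) genes, 11 were higher and 15 lower (8.64%). Of 24 stress genes, the heat shock genes Hspa1a and Hspa1b and the chaperone Dnajb9 were higher (12.5% called against 11.8% of all genes). Hspa1a had 0.211, 0.283 and 0.170 CPM in C57BL/6J, against 3.40, 3.62 and 3.82 CPM in ICR (log2 4.01 ± 0.35, adjusted p = 0.000826). Of 16 iron genes, the iron exporter Slc40a1 was higher, with 133, 140 and 130 CPM against 240.0, 279 and 276 CPM (log2 0.98 ± 0.14), and Hfe2 and Hamp2 were lower (18.8% called). Oat, an enzyme of pericentral hepatocytes, had 1628, 1275 and 1671 CPM against 338, 517 and 521 CPM (log2 -1.73 ± 0.24, adjusted p = 0.00745). Of 7 cholangiocyte markers, Sox9 was lower (log2 -1.44), and the other 6, from -0.81 for Cldn7 to 0.48 for Krt19, did not pass the test. Of 9 stellate and mural cell markers (median 0.04), Rgs5 was higher (1.47), and the other 8, from -0.41 for Lrat to 0.96 for Hgf, did not. Neither Sox9 nor Rgs5 was held in every leave-one-out fit, and none of the 7 endothelial markers tested was called. None of the markers of pancreas, muscle or adipose tissue reached the level needed for the test. The adipose markers summed to 3.24, 0.377 and 2.97 CPM in C57BL/6J, against 0.160, 0 and 0 CPM in ICR. By chromosome, the share of called genes ran from 9.24% on chromosome 5 to 14.2% on chromosomes 1 and 17 among the autosomes.

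The same strain contrast in the 6 CDAHFD libraries shared no library with the ND contrast. It called 2641 of 13902 genes (19%), 1310 higher (9.42%) and 1331 lower (9.57%). Of the 1461 ND calls tested there, 1406 (96.2%) had the same sign, against 74.1% of the genes not called on ND. A total of 822 were called with the same sign, which is 56.3% of the ND calls and 33.6% of the CDAHFD calls tested on ND. Only 8 were called with the opposite sign. Reads of ICR mice on both diets were aligned to the same C57BL/6J genome. A difference in expression and one in read assignment therefore cannot be told apart by comparing the diets. C1rb differed by 5.90 on ND and 5.83 on CDAHFD on the log2 scale, Cyp2c39 by 5.28 and 5.0, and Rps2 by -4.55 and -4.37. Serpina1d differed by -1.91 and -2.06, Oat by -1.73 and -1.91, and H2-Q7 by -2.64 and -2.10. Mup9 differed by 5.38 and 3.76, Mup11 by -4.96 and -2.60, and Serpina1e by -4.80 and -2.61. The strain by diet term passed the threshold for none of these genes (adjusted p of the strain by diet term 0.265 or more).

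A strain by diet term passed the threshold for 25 of 13901 genes (0.18%), and 19 of these were ND calls. Dio1 averaged 120 ± 53.2 (SD) CPM for C57BL/6J on ND and 2.92 ± 1.32 CPM for ICR. It stood at 111 ± 24.7 and 73.2 ± 37.3 CPM on CDAHFD (n = 3 each), and the term was 4.75 ± 0.64 (adjusted p = 0.0126). Its strain difference was thus present on ND and not detected on CDAHFD. Cyp46a1, at 3.50 and 88.0 CPM on ND, was at 2.16 and 2.01 CPM in C57BL/6J and ICR on CDAHFD (term -4.75 ± 0.63). Acpp, at 16.7 and 0.115 CPM on ND, was at 1.05 and 1.09 CPM on CDAHFD (term 7.20 ± 0.73, adjusted p = 0.00196). Tiam2, an activator of Rac, was at 14.3 and 2.29 CPM on ND and at 1.80 and 1.92 CPM on CDAHFD. Rpl26 went the other way, with a log2 difference of -1.61 on ND and -3.89 on CDAHFD. All 35 type I interferon response genes were lower in ICR on CDAHFD (9.57% of all genes), 2 were lower on ND, and the strain by diet term passed the threshold for none of the 35 in edgeR.

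**Figure D5:**
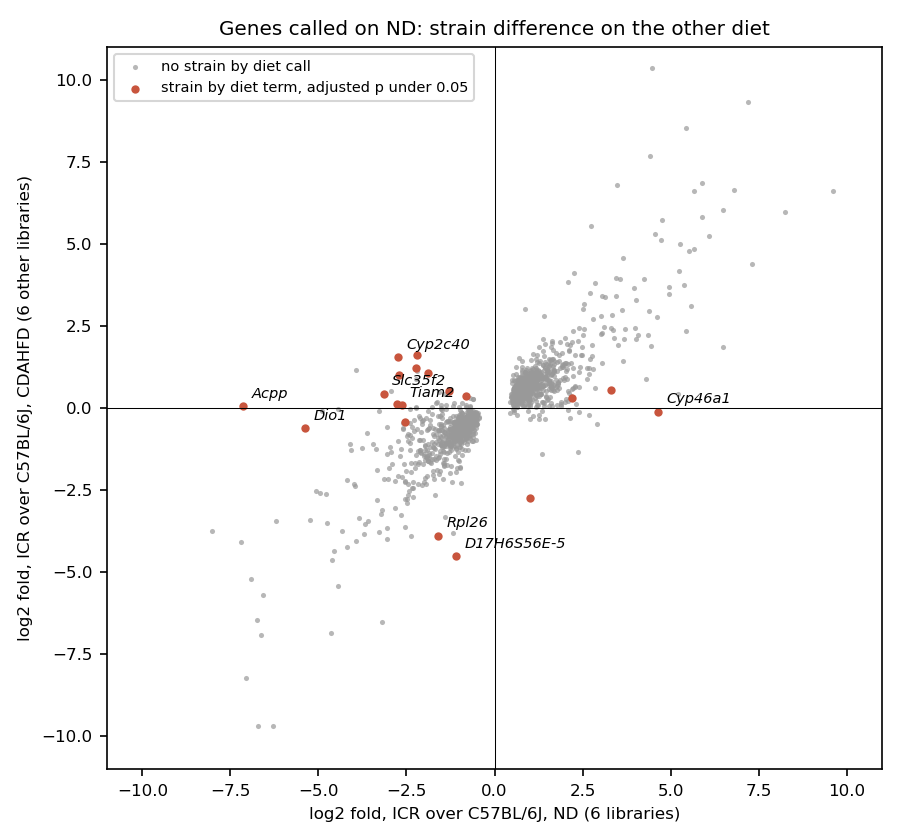
Log2 difference between ICR and C57BL/6J on CDAHFD (vertical) against that on ND (horizontal) for the genes called on ND and tested on both diets, 1 point per gene, with red points for a strain by diet term below the threshold. Most points lie in the lower left and the upper right, while Acpp, Dio1 and Cyp46a1 lie near 0 on the vertical axis.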

How the data were processed

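On ND, 3 liver RNA-seq libraries of C57BL/6J mice and 3 of ICR mice were compared, grouped by their labels. Per the study's methods the reads were trimmed with fastp 0.23.4, aligned with HISAT2 2.2.1 and counted with featureCounts 2.0.6. The methods name the build mm10 and the submitters' processing notes mm39, and the methods give rRNA depletion where the labels' protocol gives mRNA purification. The deposited gene counts were used without batch correction. The paper states that its expression heatmap was corrected for a batch effect, but its methods do not name the batches. A batch that ran with strain could not be told apart from the strain difference. The authors also deposited FPKM values, which entered no test, and 12 columns of CPM were not used. After 3 repeated lines were dropped, 17710 genes remained. Genes were kept by filterByExpr (count minimum 10), scaled by TMM and tested with edgeR 4.0.16 (quasi-likelihood F test, R 4.3.3) in the 6 ND libraries, with Benjamini-Hochberg adjustment over all genes tested. The fit was checked on simulated data. CPM values use the TMM-scaled library size. The SE of a log2 difference was taken as its absolute value divided by the square root of the F statistic. The strain contrast on CDAHFD was fitted likewise on its 6 libraries and the strain by diet term on all 12. Named genes are the 12 largest rises and falls at 5 CPM or more without overlap, up to 6 members with the smallest p of each list, all members of the strain, liver identity, clock and Y-linked lists, and 8 genes ranked first by the strain by diet test; clone names were passed over among the largest changes. Other members are named as examples chosen after their values were seen. The members and the 61 gene lists were chosen with earlier results of these data known. Near-identical copies were sought with BLAST in GENCODE vM21 (GRCm38). Results for a few list members are not reported here.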

Additional observations from a re-analysis of the deposited data

Results flagged for a closer look

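In 11 named genes the strain difference on ND differed from that on CDAHFD by the test of the strain by diet term, given as the log2 difference on CDAHFD minus that on ND. It was 7.20 for Acpp, 4.75 for Dio1, 3.60 for Slc35f2 and 2.73 for Tiam2, genes that were lower in ICR on ND, with log2 differences on CDAHFD of 0.06, -0.60, 0.44 and 0.10 in that order. It was 4.29 for Cyp2c40, 3.72 for Cyp2c69 and 2.96 for Igj, which were lower in ICR on ND and had a positive difference on CDAHFD. Cyp46a1 (-4.75) was higher in ICR on ND and had a difference of -0.11 on CDAHFD. Rpl26 (-2.29) and D17H6S56E-5 (-3.44) were lower in ICR on both diets, more so on CDAHFD, and Calml4 (2.74) was higher in ICR on CDAHFD with no call on ND. Adjusted p ran from 0.00196 (Acpp) to 0.0478 (Igj) in edgeR.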

How the results depend on the processing

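With 3 libraries a strain, each call outside the 160 genes was missing from at least 1 leave-one-out fit. The part of the smaller number of libraries in these losses was not tested. With all libraries kept, DESeq2 called 1475 of the 1475 ND calls. The likelihood ratio test of edgeR called 1474 of them, and a fit of all 12 libraries called 1438. All 1475 ND calls kept their sign, wherever they were tested, when 1 library was left out. These fits share libraries with the main fit, so the kept calls and signs are no independent support. The fits with all libraries kept that are named here also called more genes than the main fit. Leaving out 1 library moved the ND counts between 78 and 1737 higher and 108 and 1655 lower, the CDAHFD counts between 415 and 1366 higher and 430 and 1177 lower, the shared calls between 143 and 1293, the strain by diet calls between 6 and 136, and the ratio of the ICR to the C57BL/6J spread between 0.916 and 2.03. DESeq2 called 1405 higher and 1206 lower genes on ND, 1559 shared and 241 by the strain by diet term, and edgeR's likelihood ratio test called 1220, 1152, 1386 and 232. A fit of all 12 libraries called 1574 higher and 1408 lower on ND. The strain by diet term had 14 calls with library size alone and 41 without the low-count filter. The cause of these changes was not tested. The numbers of the libraries were not taken as pairs. Deviations of same-numbered ND libraries from the mean of their strain correlated at 0.26, 0.20 and -0.16. For libraries with different numbers the values ran from -0.34 to 0.21, and whether the numbers mark pairs is not settled by these values. A replicate block gave 926 higher and 915 lower ND calls, 2067 lower CDAHFD calls, 1298 shared calls and 12 strain by diet calls. Of the 157 named genes called on ND, 148 were called under the block, 142 with library size alone and 157 with DESeq2, and none changed direction.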
